A study of Canis lupus familiaris with 8 samples.

Results

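The E2F family and its DP partners were followed in peripheral blood mononuclear cells (PBMCs) of obese and normal dogs. They are the 10 genes E2F1 to E2F8, TFDP1 and TFDP2, taken by symbol from tables of 35048 gene rows. Each of the 10 symbols stood in 1 row. The obese group held 5 dogs, labelled Dachshunds (dog 1), Chihuahua (dog 2), Labrador retrievers (dogs 3 and 4) and Welsh Corgi (dog 5). The normal group held 3 dogs, all labelled Beagle. No treatment is named for either group, and the sources used here do not state age, sex or how obesity was judged. Because no breed occurs in both groups, breed and body condition cannot be told apart in any comparison below.

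E2F proteins are transcription factors that switch on the genes a cell needs to copy its DNA. Most bind DNA as a pair with a DP protein, and the retinoblastoma protein RB and its relatives hold them in check until cyclin-dependent kinases phosphorylate RB. E2F1, E2F2 and E2F3 are activators. E2F4 and E2F5 act mostly with the RB relatives in resting cells, E2F6 represses with a polycomb complex, and the atypical E2F7 and E2F8 bind DNA without a DP partner and repress E2F targets late in the cycle. Most lymphocytes and monocytes in blood are resting, so transcripts of the cycle come from the minority of cells that divide.

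RNA was measured by 3′ tag sequencing, which reads a short stretch close to the poly(A) tail of each transcript. Levels are given as CPM, counts scaled to a common library size, and serve to follow 1 gene across dogs. A gene's level also depends on how well its 3′ end is annotated, so levels are not compared between genes. Libraries held 10264202 to 14910982 counts. PBMC markers were present throughout, with 49.2 to 179 CPM for the T cell gene CD3E, 6.46 to 43.7 CPM for the B cell gene CD79B and 55.4 to 149 CPM for the monocyte gene CSF1R, while CD8A stayed at 0.113 to 2.51 CPM and the B cell gene MS4A1 was at 0 in normal dog 2. Obese dog 3 stood apart from the other obese dogs, with a summed level of 7920 CPM over 10 neutrophil markers against 335 to 1220 CPM, and 1170 CPM over 9 erythroid markers against 18.3 to 56.8 CPM. The fold changes of the members are therefore also given without this library. The normal dogs had neutrophil sums of 2030, 7910 and 4900 CPM, so obese dog 3 was near them in this measure. Without it, every obese dog lay below every normal dog in the neutrophil sum. Fits without obese dog 3 therefore cannot tell body condition and neutrophil content apart.

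All 10 members passed the filter on low counts, and each had 3 or more libraries above the filter's level in the obese group as well as in the normal group. In edgeR's quasi-likelihood test over 20632 genes, 0 of the 10 members passed an adjusted p of 0.05, where 0.233% of all genes passed (0.184% lower and 0.0485% higher in the obese dogs). At an unadjusted p under 0.05 there were 4 members, E2F3, E2F7 and E2F8 lower and TFDP2 higher in the obese dogs, where 15.7% of all genes reached that level. DESeq2 called 2 members, E2F8 and TFDP2 (4.98% of all genes called), and limma-voom with library quality weights called 4, E2F3, E2F7, E2F8 and TFDP2 (19% of all genes called). The quality weight was highest for normal dog 3, at 3.54, and lowest for obese dog 3, at 0.279, so the limma-voom results lean on normal dog 3. Without obese dog 3 edgeR called 1, E2F8, where 8.28% of all genes were called. The obese and normal dogs did not overlap in 3 members, E2F7 and E2F8 with lower and TFDP2 with higher obese values, and 10.9% of all genes had groups without overlap. The fold changes of 6 members were negative and of 4 positive, with a median of −0.21 on the log2 scale, where the median of all genes was 0.09.

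**Figure D1:**
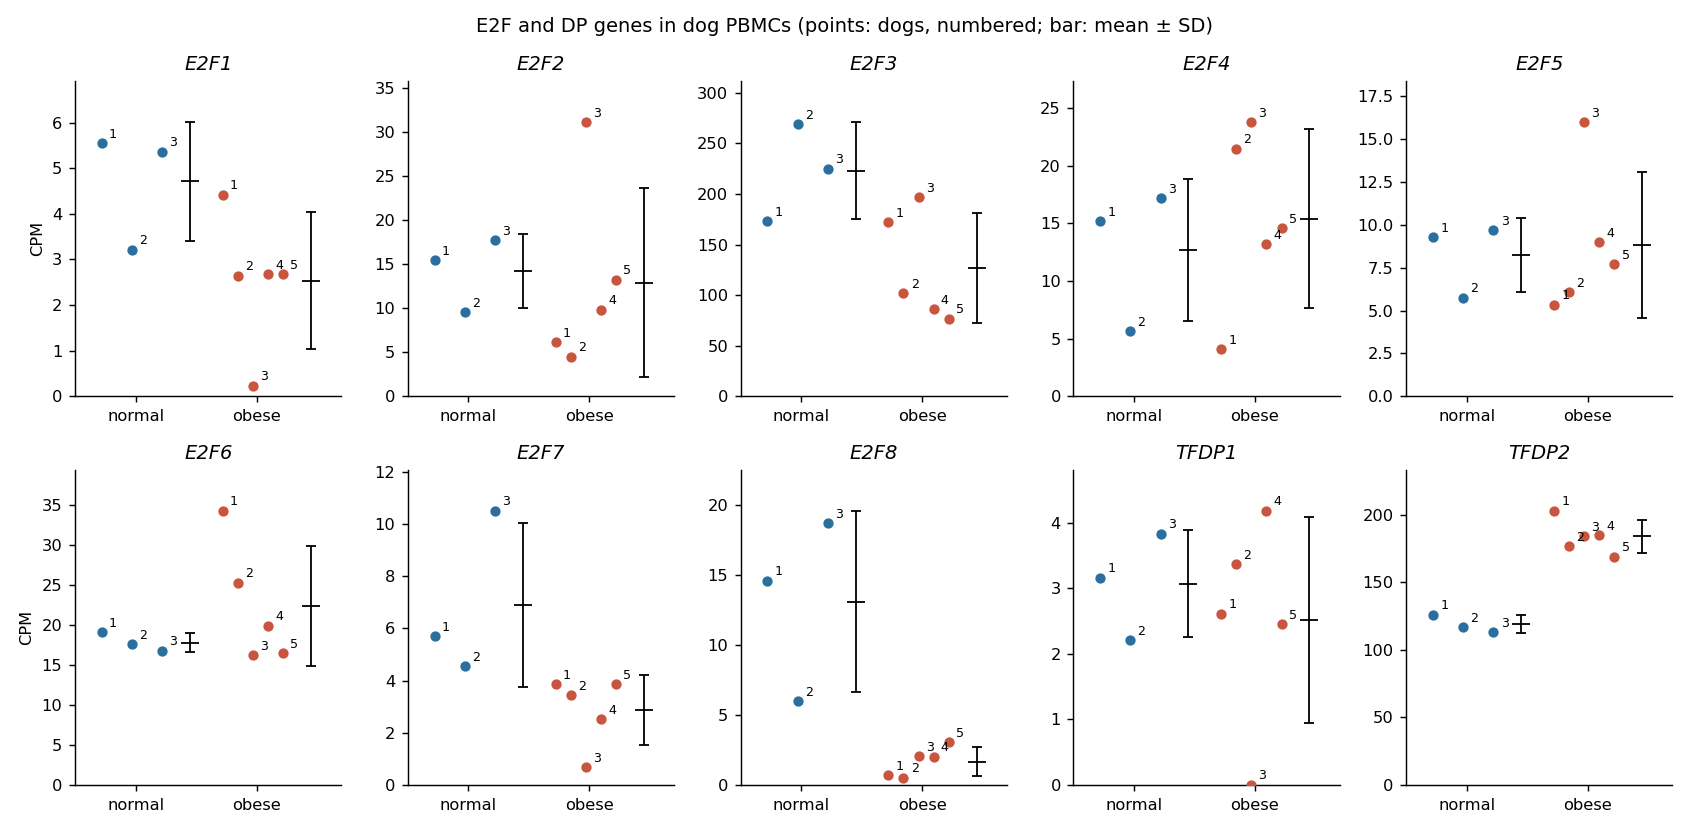
Level of each member in CPM (vertical axes, linear from 0) for the 3 normal and 5 obese dogs; each point is a dog with its number, and the bar beside each group is the mean ± SD. The groups separate in E2F7, E2F8 and TFDP2, and obese dog 3 lies away from the other obese dogs in E2F1, E2F2, E2F5, E2F7 and TFDP1.

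E2F8, one of the atypical repressors, had the largest difference of the 10. It was read at 0.681, 0.529, 2.04, 2.01 and 3.03 CPM in obese dogs 1 to 5, from 6, 8, 18, 36 and 52 counts. The normal dogs 1 to 3 had 14.6, 5.98 and 18.7 CPM, from 207, 54 and 293 counts. Every obese dog thus lay below every normal dog, and the closest pair, obese dog 5 and normal dog 2, had 95% Poisson intervals of 2.26 to 3.98 and 4.49 to 7.8 CPM that did not meet. These intervals cover counting error only. The means were 1.66 ± 1.05 CPM (SD, n = 5) and 13.1 ± 6.48 CPM (SD, n = 3), so that the normal mean was 7.88 times the obese mean. On the log2 scale the fold change was −2.96 with a standard error (SE) of 0.599, and edgeR did not call it (adjusted p = 0.0774). Over the 17 alternatives it stayed between −3.66 and −2.64, with adjusted p-values from 0.000251 to 0.388. Without obese dog 3 it was −3.06. Its adjusted p was 0.0178 without that dog (edgeR), 0.000251 with DESeq2 and 0.00374 with limma-voom.

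E2F7, the other atypical member, had the same order of groups with a smaller gap. The obese dogs 1 to 5 had 3.86, 3.44, 0.68, 2.51 and 3.85 CPM, from 34, 52, 6, 45 and 66 counts. In the normal dogs E2F7 was at 5.69, 4.54 and 10.5 CPM, from 81, 41 and 164 counts. Obese dog 3 was the lowest and normal dog 3 the highest, and the Poisson intervals of obese dog 1 (2.67 to 5.39 CPM) and normal dog 2 (3.26 to 6.15 CPM) overlapped widely. The group means were 2.87 ± 1.34 CPM (SD, n = 5) and 6.90 ± 3.14 CPM (SD, n = 3). E2F7 did not pass in edgeR, at a log2 fold change of −1.26, an SE of 0.544 and an adjusted p = 0.302. Leaving out obese dog 3 gave −1.06, and leaving out normal dog 3 gave −0.86, which moved it by more than any other left-out dog. With limma-voom, which gave normal dog 3 the most weight, the adjusted p was 0.0226. Over all alternatives it ran from 0.0226 to 0.746, the latter without normal dog 3 (edgeR).

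Within a library, the 2 atypical genes did not keep a fixed ratio. There were 0.176, 0.154, 0.8 and 0.788 E2F8 counts per E2F7 count in obese dogs 1, 2, 4 and 5, and 3 in obese dog 3, from 18 and 6 counts. The normal dogs had 2.56, 1.32 and 1.79. E2F8 was therefore the less counted of the pair in 4 obese dogs and the more counted in obese dog 3 and all 3 normal dogs. This ratio does not depend on the scaling of the libraries, and it was chosen after its values were seen.

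**Figure D2:**
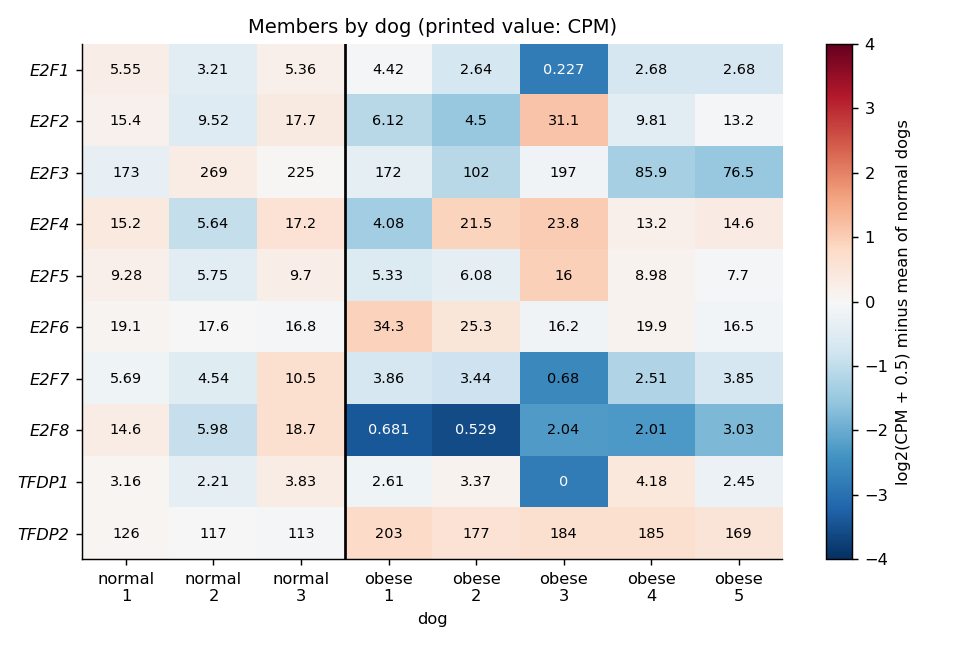
The 10 members (rows) in the 8 dogs (columns), coloured by log2(CPM + 0.5) minus the mean of the 3 normal dogs, with the CPM printed in each cell. E2F8 is blue in all 5 obese dogs and TFDP2 is pale red in all 5, while obese dog 3 has 0.227 CPM of E2F1 and 0 of TFDP1 beside 31.1 CPM of E2F2.

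The activators differed among themselves. E2F3, an activator that is also made in resting cells, had 172, 102, 197, 85.9 and 76.5 CPM in obese dogs 1 to 5 and 173, 269 and 225 CPM in the normal dogs. Obese dogs 2, 4 and 5 were well below the normal range, obese dog 1 was just under the lowest normal dog, and obese dog 3 was inside the normal range. The means were 127 ± 54.3 CPM (SD, n = 5) and 223 ± 48.1 CPM (SD, n = 3). For E2F3 edgeR gave a log2 fold change of −0.81 with an SE of 0.344 and an adjusted p = 0.294, and −1.06 without obese dog 3 (adjusted p = 0.056). Limma-voom gave an adjusted p = 0.00886, and the alternatives together gave 0.00886 to 0.781.

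E2F1, the founding activator, was at 4.42, 2.64, 0.227, 2.68 and 2.68 CPM in obese dogs 1 to 5, against 5.55, 3.21 and 5.36 CPM in normal dogs 1 to 3. The value of obese dog 3 came from 2 counts and those of the other 4 from 39 to 48 counts each (95% Poisson interval for obese dog 3, 0.0275 to 0.819 CPM). Obese dog 1 lay above normal dog 2, so the groups overlapped. The log2 fold change of −0.89 had an SE of 0.66 (adjusted p = 0.545, edgeR), and without obese dog 3 it was −0.65. E2F2, an activator also known from the maturation of red cells, ran the other way in obese dog 3. It had 6.12, 4.5, 31.1, 9.81 and 13.2 CPM in obese dogs 1 to 5 and 15.4, 9.52 and 17.7 CPM in the normal dogs. Obese dog 3 had the highest E2F2 of all 8 libraries, and obese dogs 1 and 2 the lowest. Its log2 fold change was −0.14 (SE 0.574, adjusted p = 0.933, edgeR), and −0.79 without obese dog 3 (adjusted p = 0.245).

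None of the E2F repressors that bind with DP partners passed the test, and their groups overlapped. E2F4, the main E2F of resting cells, had 4.08, 21.5, 23.8, 13.2 and 14.6 CPM in obese dogs 1 to 5 and 15.2, 5.64 and 17.2 CPM in the normal dogs. Its lowest values, in obese dog 1 and normal dog 2, were 36 and 51 counts, against 210 to 325 counts in the other libraries. These 2 low libraries came from 1 dog of each group and had the lowest count totals, 10264202 and 10408203. E2F5 was also lowest in them, at 5.33 and 5.75 CPM. For E2F4 the log2 fold change was 0.28 (SE 0.54, adjusted p = 0.84, edgeR), and it was 0.04 without obese dog 3, the library with the highest level, and −0.10 without normal dog 2 and with limma-voom. E2F5, which also works with the RB relative RBL2, ranged from 5.33 to 16 CPM among the obese and from 5.75 to 9.7 CPM among the normal dogs, with the highest level in obese dog 3. Its log2 fold change of 0.09 (SE 0.422, adjusted p = 0.941, edgeR) was −0.26 without that dog and −0.0081 with upper-quartile scaling, so its sign depended on the setting.

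E2F6, which represses without binding RB, varied little among the normal dogs, at 19.1, 17.6 and 16.8 CPM. The obese dogs had 34.3, 25.3, 16.2, 19.9 and 16.5 CPM, with dogs 1, 2 and 4 above the normal range and dogs 3 and 5 just below it. The group means of 22.4 ± 7.56 CPM (SD, n = 5) and 17.8 ± 1.19 CPM (SD, n = 3) differed by less than the spread among the obese dogs. Its log2 fold change was 0.33 (SE 0.31, adjusted p = 0.641, edgeR), and 0.39 without obese dog 3.

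The DP partners showed unlike patterns. TFDP2, which encodes DP2, was at 203, 177, 184, 185 and 169 CPM in obese dogs 1 to 5 and at 126, 117 and 113 CPM in the normal dogs. The groups lay apart and each was tight, with coefficients of variation of 6.71% in the obese and 5.61% in the normal dogs, the lowest of the 10 members in both groups. The obese mean of 184 ± 12.3 CPM (SD, n = 5) was 1.55 times the normal mean of 119 ± 6.65 CPM (SD, n = 3). The difference of 0.63 on the log2 scale had an SE of 0.197 and did not pass (adjusted p = 0.189, edgeR). Leaving out any 1 dog gave 0.57 to 0.69, with 0.60 without obese dog 3. The adjusted p was 0.0396 with DESeq2, 0.0163 with limma-voom and 0.0865 without obese dog 3 (edgeR), and it ran from 0.0163 to 0.637 over all alternatives.

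TFDP1, which encodes DP1, was counted little, with 2.61, 3.37, 0, 4.18 and 2.45 CPM in obese dogs 1 to 5 and 3.16, 2.21 and 3.83 CPM in the normal dogs. Obese dog 3 had 0 counts, which allows a level of up to 0.34 CPM (3 counts). At the level of the lowest of the other 7 libraries, 2.21 CPM, it would have held 19.5 counts. The log2 fold change of −0.27 (SE 0.855, adjusted p = 0.908, edgeR) became 0.0023 without obese dog 3.

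**Figure D3:**
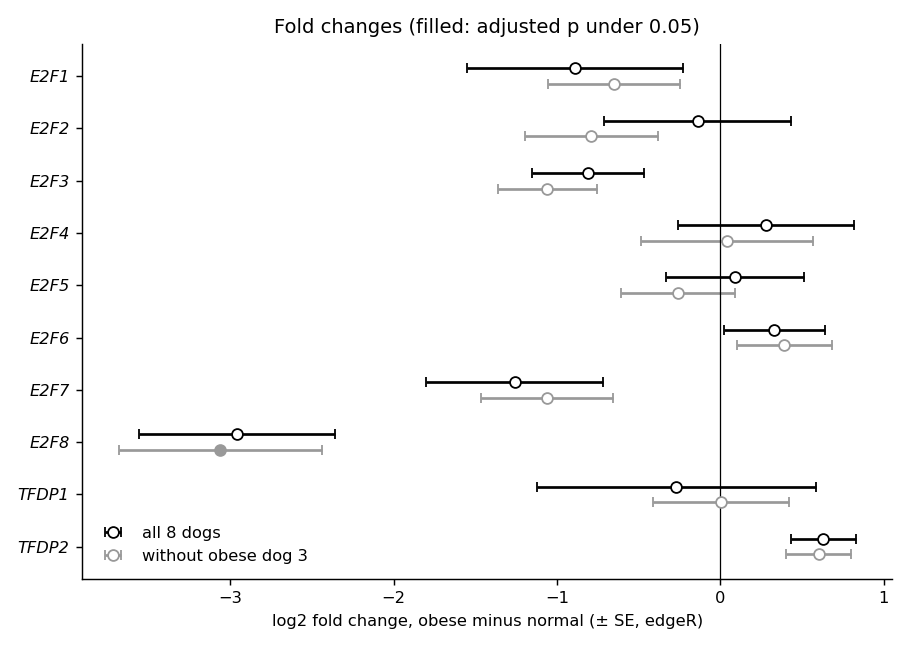
Log2 fold change, obese minus normal, with its standard error for the 10 members, fitted with edgeR over all 8 dogs (black) and without obese dog 3 (grey); filled points passed an adjusted p of 0.05. E2F8 lies near −3 in both fits and is filled only without obese dog 3, and the largest shifts between the fits are those of E2F2, E2F5 and TFDP1.

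As a share of all counts over the 10 members, E2F3 and TFDP2 together took 79.3 to 85.9% among the obese and 77.2 to 87.6% among the normal dogs. The balance between them differed. TFDP2 had 1.18, 1.74, 0.934, 2.16 and 2.21 counts per E2F3 count in obese dogs 1 to 5, and 0.727, 0.433 and 0.502 in the normal dogs, so the ratio was higher in each obese dog than in any normal dog. All 10 genes together took 0.0351 to 0.0424% of the counts of an obese library and 0.0382 to 0.0464% of a normal one. These ratios are descriptions chosen after the values were seen.

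Obese dog 3 was the highest or the lowest of the 8 libraries for 7 of the 10 members. It was highest for E2F2, E2F4 and E2F5 and lowest for E2F1, E2F6, E2F7 and TFDP1. Over all genes tested it was highest or lowest for 41.7%, more than any other library, and the next was obese dog 1 with 33.7%. Obese dog 4, of the same breed label, was at an extreme for 1 member, with the highest TFDP1. The erythroid genes ALAS2 and AHSP were at 569 and 284 CPM in obese dog 3 and at or below 12.2 and 5.22 CPM in every other library. The part of these cells in the high E2F2, E2F4 and E2F5 of this library was not tested.

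Marker genes of cell types went with 3 members, for E2F8 and TFDP2 only in the difference between the groups. In bulk RNA, fewer cells of a type and less RNA per cell cannot be told apart. For E2F8, the 8 proliferating cell markers summed to 60.6 to 219 CPM among the obese and 254 to 418 CPM among the normal dogs. In obese dogs 1 to 5 the sums were 75.1, 74, 219, 60.6 and 108 CPM, which was not the order of their E2F8 levels. All 8 were below 0 on the log2 scale, CENPF fell, and CDK1 was at 0 in obese dog 1. E2F8 had 9.06, 7.15, 9.34, 33.1 and 28.2 counts per 1000 counts of these markers in obese dogs 1 to 5, and 34.8, 23.5 and 52.2 in the normal dogs. Relative to the proliferating cell markers, obese dogs 4 and 5 were thus inside the normal range of E2F8 and obese dogs 1, 2 and 3 below it. Against the same markers E2F7 had 35.8 to 51.4 counts per 1000 in obese dogs 1, 2, 4 and 5, 3.11 in obese dog 3 and 13.6 to 29.2 in the normal dogs. For E2F1 these were 24.9 to 58.9, 1.04, and 12.6 to 15. Per proliferating marker count, E2F7 and E2F1 were therefore higher in those 4 obese dogs than in any normal dog. The ratios of obese dog 3 rest largely on MKI67, which alone had 144 of its 219 CPM. MKI67 was at 13.3 to 23.4 CPM in the other obese dogs and at 89.7 to 147 CPM in the normal dogs. Plasma cell markers, 8 in the list, summed to 137 to 258 CPM among the obese and 320 to 1140 CPM among the normal dogs, with MZB1 and SDC1 at 0 in obese dog 1. Whether cell composition accounts for the differences in E2F8 and E2F7 was not tested.

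E2F3 was high in the libraries with high neutrophil markers, but not in proportion to them. Their sum was 1220, 335, 7920, 519 and 491 CPM in obese dogs 1 to 5 and 2030, 7910 and 4900 CPM in the normal dogs, with the receptor CXCR2 at 0 in obese dogs 1 and 5 and normal dog 1. The 5 libraries with the highest E2F3 were the 5 with the highest neutrophil sum. Per 1000 counts of these markers E2F3 had 141, 304, 24.9, 165 and 156 counts in obese dogs 1 to 5. In normal dogs 1 to 3 this ratio was 85.4, 34.1 and 45.9. Of the 10 markers 6 were below 0 on the log2 scale and 0 passed (edgeR), and monocytes also express several of them. TFDP2 shared its group difference with the T cell markers, but its order among the obese dogs was unlike theirs. The list of 10 was dominated in some libraries by CD4, which canine neutrophils also carry and which had 586 CPM in obese dog 3. The other 9 all had positive fold changes, with 0 past the threshold, and summed to 1080, 1140, 464, 915 and 1180 CPM in obese dogs 1 to 5 and 401, 349 and 299 CPM in the normal dogs. Leaving out CD4 was decided after its values were seen. Obese dog 5 had the highest T cell sum of the obese dogs and their lowest TFDP2 level, 169 CPM. Obese dog 3 had the lowest T cell sum of the obese dogs and a TFDP2 level inside their range. It had 397 TFDP2 counts per 1000 counts of the 9 markers, where the other obese dogs had 144 to 203 and the normal dogs 315 to 378. Platelet markers, 6 of which were tested, also separated the groups in the direction of TFDP2. They summed to 1240, 624, 72.1, 67.6 and 183 CPM in obese dogs 1 to 5 and 21, 8.19 and 32 CPM in the normal dogs. All 6 had positive fold changes and 0 passed (edgeR). The part of neutrophils in the E2F3 values and of T cells and platelets in the TFDP2 values was not tested.

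**Figure D4:**
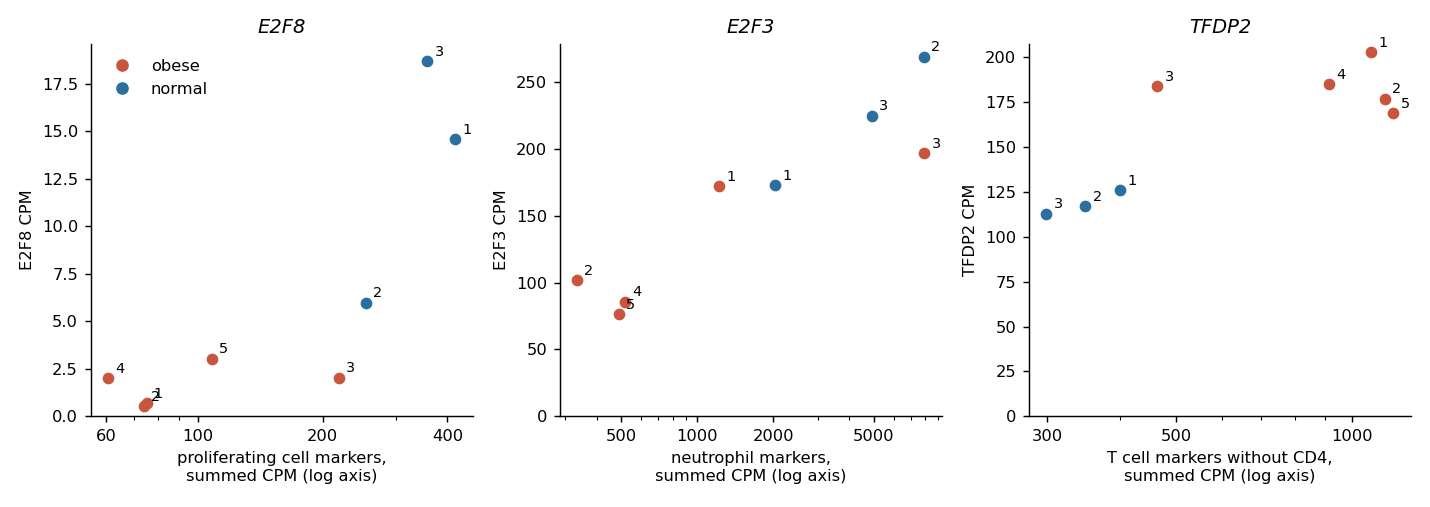
E2F8, E2F3 and TFDP2 in CPM (vertical axes, linear) against the summed CPM of proliferating cell, neutrophil and T cell markers without CD4 (horizontal log axes); each point is a dog with its number. E2F8 is high where the proliferating markers reach 254 CPM or more, E2F3 is high in the 5 libraries with neutrophil sums of 1220 CPM or more, and obese dog 3 has a TFDP2 level of 184 CPM at a T cell sum of 464 CPM.

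Genes around the family were read from lists. Of the 9 pocket proteins and MuvB genes, which with E2F4 keep cycle genes silent, 0 passed, 5 had negative and 4 positive fold changes, and the median was −0.16. The median had no fixed sign, at 0.08, 0.10 and 0.02 without obese dog 2, obese dog 4 and normal dog 2. DESeq2 called 1 of the 9 (4.98% of all genes) and limma-voom 2 (19%). RB1 itself averaged 190 CPM among the obese and 175 CPM among the normal dogs. MYBL2, the MYB protein that takes over the MuvB core in dividing cells, had 5.19 ± 2.68 against 21.6 ± 6.57 CPM (SD, n = 5 and 3), with a log2 fold change of −2.04 (adjusted p = 0.106, edgeR). LIN54, the DNA-binding MuvB subunit, had −0.74, RBL1, or p107, −0.82, and LIN52 0.52.

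The cyclins and kinases upstream of RB split in 2 directions. Among these 11 genes 0 passed in edgeR, and 2 had an unadjusted p under 0.05 with lower and 2 with higher obese values (6.73% and 9.01% of all genes). DESeq2 called 3 (4.98%), limma-voom 5 (19%) and edgeR without obese dog 3 called 3 (8.28%). The median log2 fold change was −0.37, with −0.22 without obese dog 3 and −0.57 without obese dog 1. Cyclin E1, which completes RB phosphorylation with CDK2, had 3.97, 9.72, 9.64, 3.9 and 3.91 CPM in obese dogs 1 to 5 and 34.3, 19.4 and 26.2 CPM in the normal dogs. For this gene, CCNE1, edgeR gave a log2 fold change of −2.10 and an adjusted p = 0.0747. CCNE2 had 10.2 ± 0.885 against 21.5 ± 5.24 CPM (SD, n = 5 and 3). The D cyclins, which start RB phosphorylation, had higher obese values in 2 cases. CCND2 averaged 164 ± 44.9 CPM among the obese and 81.9 ± 25.4 CPM among the normal dogs (SD, n = 5 and 3), and CCND1 had 1.25 to 7.14 against 0.141 to 0.664 CPM. Neither passed, with adjusted p-values of 0.179 and 0.13 (edgeR), while CCND3 had a log2 fold change of −0.16.

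The inhibitors of these kinases had a median log2 fold change of 1.00 over 6 tested genes, which was 0.29 without obese dog 3. CDKN1B, or p27, which restrains cyclin E with CDK2, had 10.3, 8.86, 7.94, 6.25 and 3.85 CPM in obese dogs 1 to 5 and 2.46, 2.99 and 0.957 CPM in the normal dogs. CDKN2D, or p19, an inhibitor of CDK4 and CDK6, had 519, 385, 111, 128 and 125 CPM against 72, 33.9 and 71.1 CPM. Its highest values were in obese dogs 1 and 2, which also had the highest platelet marker sums, 1240 and 624 CPM, and the part of platelets in it was not tested. In both genes every obese dog was above every normal dog, a separation that 5.75% of all genes had in that direction. Their adjusted p-values were 0.159 and 0.167 (edgeR), and 0 of the 6 passed. DESeq2 called 2 (4.98% of all genes), and 2 had an unadjusted p under 0.05 with higher obese values (9.01%). Limma-voom called 2 (19%), and edgeR without obese dog 3 called 1 (8.28%). CDKN1C, at 35.4 CPM in obese dog 3 and 1.98 to 3.44 CPM in the other obese dogs, had 0.773 to 3.19 CPM in the normal dogs. CDKN1A, or p21, had 185 ± 121 against 328 ± 206 CPM (SD, n = 5 and 3).

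The polycomb partners of E2F6 and the cofactors of the activators had no member past the threshold in edgeR. Of 12 polycomb partners 10 had positive fold changes, the median was 0.35, and 1 (MGA) had an unadjusted p under 0.05, with higher obese values (9.01% of all genes). DESeq2 called 0 and limma-voom 2, both higher (19% of all genes called in either direction). MGA, the scaffold of that complex, had 342 ± 27.2 against 211 ± 101 CPM (SD, n = 5 and 3), WDR5 had a log2 fold change of 0.72, CBX3 of 1.11 and HDAC2 of −0.43. The 12 turnover factors and cofactors had a median of 0.31, with 2 genes at an unadjusted p under 0.05, both lower (6.73% of all genes). DESeq2 called 1 (4.98%), limma-voom 2 (19%) and edgeR without obese dog 3 called 1 (8.28%). CCNF, or cyclin F, which marks E2F activators for degradation, had 1.22 ± 0.428 against 4.15 ± 1.96 CPM, and the acetyltransferase EP300 had 252 ± 70.4 against 385 ± 37.9 CPM (SD, n = 5 and 3). SUV39H1 and FZR1 had log2 fold changes of 1.08 and 0.57.

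Most of the E2F target genes listed here had lower values in the obese dogs. The target lists were chosen with earlier results of these data known, so their counts beside those of all genes are descriptions. Of 41 replication and G1/S targets tested, 37 were below 0 on the log2 scale and their median was −1.02, where 44.7% of all genes were below 0. This list shares CCNE1 and CCNE2 with the cyclins above and RBL1 and MYBL2 with the pocket proteins and MuvB genes, so the lists are not separate. CDC25A and DTL fell and 0 rose in edgeR, where 0.184% of all genes fell, and 23 had an unadjusted p under 0.05 in the lower direction, where 6.73% of all genes did. The groups did not overlap in 18, all with lower obese values, against 5.16% of all genes. CDC25A, the phosphatase that activates CDK2, had 1.02, 0.992, 1.36, 2.4 and 2.33 CPM in obese dogs 1 to 5 and 15.6, 12.3 and 19.4 CPM in the normal dogs. Its log2 fold change was −3.26 (SE 0.417, adjusted p = 0.0228, edgeR). DTL, which targets the licensing factor CDT1 for degradation, had 3.06, 4.23, 4.99, 5.69 and 7.35 CPM against 30, 17.2 and 54.8 CPM (adjusted p = 0.0373, edgeR). Obese dog 3 lay with the other obese dogs in both genes. The count of 2 depended on single dogs: it was 15, all lower, without obese dog 3 (5.03% of all genes lower), 1 without obese dog 5, and 0 without obese dog 1, 2 or 4 or without normal dog 1 or 3. DESeq2 called 16 of the 41 (4.98% of all genes) and limma-voom 24 (19%), all lower. The median log2 fold change was −1.02 without obese dog 3.

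Among the targets that did not pass, MCM5, of the replicative helicase, ran from 4.08 to 11.2 CPM among the obese and from 19.3 to 31.6 CPM among the normal dogs. ORC1, of the origin recognition complex, had 1.25 to 2.8 against 4.21 to 13.1 CPM. RRM1, a subunit of ribonucleotide reductase, was at −1.04 on the log2 scale (SE 0.209). Of the 4 with positive values, SLBP, POLA2 and MYC had log2 fold changes of 0.48, 0.18 and 0.13 and were named after their values were seen. In the 14 repair and checkpoint targets the median was −0.42, 10 were negative (44.7% of all genes), 0 passed in edgeR and 5 had an unadjusted p under 0.05, all lower (6.73%). DESeq2 called 3 of the 14 (4.98%), limma-voom 6 (19%), and edgeR without obese dog 3 called 2 (8.28%). CLSPN, or claspin, of the replication checkpoint, had 4.54, 3.44, 11.3, 2.84 and 5.89 CPM in obese dogs 1 to 5 and 36.2, 20.1 and 50.3 CPM in the normal dogs (adjusted p = 0.059, edgeR). FANCD2, of crosslink repair, had a log2 fold change of −0.93. The proliferating cell marker sums given above, 60.6 to 219 against 254 to 418 CPM, moved with these lists, and their part in them was not tested.

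**Figure D5:**
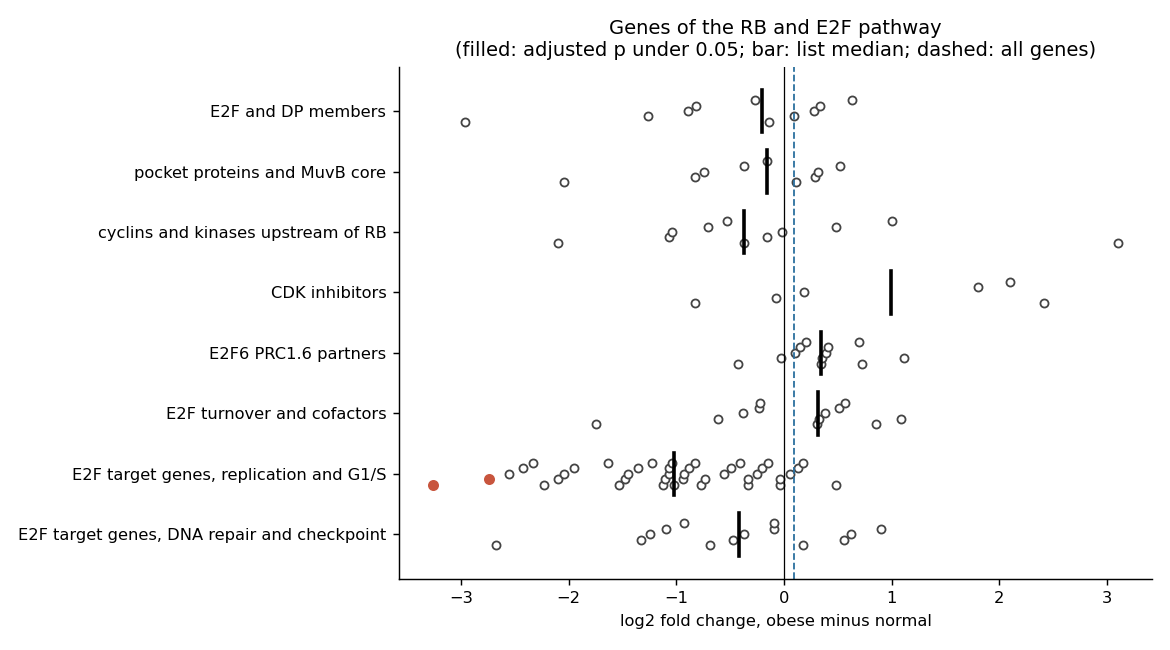
Log2 fold change, obese minus normal (horizontal axis), of each tested gene in the E2F and DP members and 7 lists of the RB and E2F pathway; black bars are list medians, the dashed line is the median of all genes at 0.09, and filled points passed an adjusted p of 0.05. The replication and G1/S targets have a median of −1.02 and hold the 2 filled points, CDC25A and DTL, while the members spread from −2.96 for E2F8 to 0.63 for TFDP2.

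Overlapping genes touch some of these values. In the reference annotation E2F1, E2F2, E2F3 and TFDP1 overlap no other gene. E2F8 overlaps an uncharacterised long noncoding RNA that had 187 counts in all libraries, where E2F8 had 674. That RNA had 3 to 40 counts per obese and 11 to 59 per normal library, which overlapped. TFDP2 overlaps 2 uncharacterised long noncoding RNAs with 2434 and 719 counts, where TFDP2 had 16940. The more counted RNA had 150, 299, 393, 505 and 559 counts in obese dogs 1 to 5, not scaled to library size. Normal dogs 1 to 3 had 220, 109 and 199. Over the 8 libraries its log2 CPM correlated with TFDP2 at 0.696, and the RNA at E2F8 correlated with E2F8 at 0.731. The part of these RNAs in the TFDP2 and E2F8 values was not tested. E2F7 overlaps a pseudogene over 2724 bases and E2F6 a long noncoding RNA over 2 bases, and counts of these partners were not analysed here. E2F5 shares 20 bases with RBIS, and E2F4 overlaps EXOC3L1, which had 4 counts. The sources used here do not say whether strand was used in counting, and reads from overlapping stretches cannot be told apart.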

How the data were processed

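PBMC RNA of 5 obese and 3 normal dogs was made into QuantSeq 3′ tag libraries, per the labels' protocols. The authors deposited 1 table per dog with raw counts per gene symbol. Bowtie2 and bedtools are named in the submitters' processing notes. Not given in the sources used here are their versions and roles, the build, the gene models and the use of strand. A repeated symbol (411 rows) kept its plain name for the row with the highest mean, and the other rows stayed in the fit.

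Tests were run with edgeR 4.0.16 in R 4.3.3 (filterByExpr by group, TMM, robust glmQLFit and glmQLFTest), and p-values were adjusted by Benjamini-Hochberg over all 20632 genes at 0.05. The fold change is obese minus normal, and its standard error is the absolute value divided by the square root of F. The common biological coefficient of variation was 0.54. The step was tested on simulated counts. Alternatives were DESeq2 1.42.0 (test and size factors), upper-quartile factors, limma 3.58.1 voom with quality weights, other filters, summed repeated symbols, a fit without robust estimation, the dog number as a block, and each dog left out. The median fold change of all genes was 0.09, and −0.03 with upper-quartile factors.

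The members and lists were chosen with earlier results of these data known. All members are named; of each list, the genes past the threshold and the 4 with the smallest p of the rest, and other genes were named after their values were seen; some of these genes are not reported here. CDKN2A, MCM7 and POLA1 were not analysed here and FBXO5 was below the filter. Overlaps come from RefSeq genes on UU_Cfam_GSD_1.0, where all 10 members were found. Each library is labelled as a separate dog, dog numbers name different animals, and the labels give no pairing. Between any 2 libraries the chi-square was at least 41.6 times its degrees of freedom (genes with 20 counts or more), so no library was counted as a repeat of another. Library totals set the precision; 95% intervals are exact Poisson.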

Additional observations from a re-analysis of the deposited data

Results flagged for a closer look

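Among the 5 obese dogs, dog 3 lay far from the others in 2 of 20 measures examined, the 10 member levels and 10 marker sums, where chance gives about 1 in 20. Its neutrophil marker sum was 7920 CPM against 335 to 1220 CPM, and the gap took 0.883 of the group's range, above the critical value of 0.71. Its erythroid marker sum was 1170 CPM against 18.3 to 56.8 CPM, with a gap of 0.967 of the range. No member level exceeded that critical value.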

How the results depend on the processing

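The count of all genes called, 48 with edgeR, was 1027 with DESeq2's Wald test, 3924 with limma-voom and 2 to 1684 when 1 dog was left out. The count of members called, 0 with edgeR, was 2 with DESeq2's Wald test, 4 with limma-voom and 0 to 1 when 1 dog was left out. With the dog number as a replicate block edgeR called 0 genes (1634 at an unadjusted p under 0.05) and 0 members, with E2F8 at −3.66. Same-numbered dogs do not come from 1 animal, and the correlations of their deviations were −0.02, −0.23 and 0.01. Differently numbered dogs reached −0.294 and 0.253, so these few values cannot show whether the numbers share anything besides a name. Of 170 member fold changes refitted, 153 kept their direction and side of the threshold, 7 passed it (E2F8 3 times, TFDP2 2 times, E2F3 and E2F7 1 time each) and 10 changed sign. The sign changed in 3 cases with another method, E2F5 at −0.0081 with upper-quartile factors and −0.22 with limma-voom and E2F4 at −0.1 with limma-voom, and in 7 with 1 dog left out, where E2F2 ran from −0.79 to 0.08, E2F4 from −0.1 to 0.54, E2F5 from −0.26 to 0.22 and TFDP1 from −0.53 to 0.0023. The cause was not tested. E2F1, E2F3, E2F6, E2F7, E2F8 and TFDP2 kept their sign in all 17 alternatives. Depth limits E2F1, E2F7, E2F8 and TFDP1 most, with 0 to 6 counts in their lowest libraries.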
